A study of Mus musculus with 4 samples.

Results

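Claudins are the 4-pass membrane proteins that line up as strands in the tight junctions between epithelial cells, and 10 claudin genes known from the segments of the nephron were followed in sections of mouse kidney. The genes were Cldn1, Cldn2, Cldn3, Cldn4, Cldn7, Cldn8, Cldn10, Cldn14, Cldn16 and Cldn19, chosen by name from the 32285 genes listed in the files, where 24 further genes carry a name beginning with Cldn. The data were spatial gene expression maps made with 10x Visium, which capture the RNA of a tissue section on barcoded spots and count each molecule by a unique identifier (UMI). The 4 sections were cut at 10 µm from the left kidneys of male wild-type C57BL/6J mice aged 7 to 8 weeks, with 2 normal sections and 2 ischemic ones, whose mice had both renal pedicles clamped for 30 min and were studied 24 h later. Neither group carried a transgene or a deletion. Normal section 1 was the deepest, with 44528078 UMIs from 2616 spots, and normal section 2 had 27657481 UMIs from 2682 spots. The ischemic sections yielded 31053530 UMIs from 2401 spots and 25957128 UMIs from 2613 spots.

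Each nephron segment carries its own set of claudins, and the set decides how leaky the junction is and which ions may pass between the cells. The proximal tubule has a leaky junction in which claudin-2 forms pores for small cations and water, and claudin-10 is made as an anion-selective form there and as a cation-selective form in the thick ascending limb. In the thick ascending limb claudin-16 and claudin-19 act together in the passage of calcium and magnesium, and claudin-14 blocks it. In the collecting duct claudin-3, claudin-4, claudin-7 and claudin-8 belong to a tight junction with little cation leak, and claudin-1 is known as a sealing claudin of the epidermis and of the parietal cells of Bowman's capsule.

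In GENCODE's annotation of GRCm38, 4 of the 10 genes lie on chromosome 16. Cldn1 (chr16:26356642-26371841, minus strand) and Cldn16 (chr16:26463135-26482765, plus strand) are separated by 91293 bases, and Cldn8 (chr16:88560828-88563183, minus strand) and Cldn14 (chr16:93919031-94008837, minus strand) lie farther along. Cldn4 (chr5:134945119-134946934, minus strand) and Cldn3 (chr5:134986214-134987472, plus strand) are separated by 39279 bases. Cldn19 lies at chr4:119255414-119262438, Cldn7 at chr11:69964779-69967885, Cldn10 at chr14:118787908-118875489 and Cldn2 at chrX:139800828-139811386, all on the plus strand. Cldn3, Cldn4 and Cldn8 are annotated with 1 exon, while Cldn16 reaches 6 exons in its longest model. Cldn3 overlaps the antisense gene Wbscr25 and Cldn19 overlaps the antisense gene Gm12927. Cldn10 and Cldn14 contain small genes inside their bounds, n-R5s51 and Gm49618.

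The start-site sequences of RefSeq (GRCm38.p6) held entries for 9 of the 10 genes, with 14 windows of 300 bases in all, 250 before and 50 after each start, and Cldn8 had no entry. The windows of 5 of these genes are shown 5′ to 3′, with capitals marking matches on either strand to a motif. The AP-1 motif was searched as TGANTCA. The TATA box was searched as TATAAA. For the GC box, the site of Sp1 factors, the letters were GGGCGG. Cldn4, Cldn1 and Cldn14 are shown as genes that were higher in ischemic sections, and the upstream and downstream starts of Cldn10 are shown since its counts pool both. Cldn2 is shown as the pore gene of the proximal tubule. Of Cldn14 only the most upstream window is shown. Its windows at chr16:93929768-93930067 and chr16:93929518-93929817 held none of the motifs searched.
Cldn4, chr5:134946885-134947184, minus strand: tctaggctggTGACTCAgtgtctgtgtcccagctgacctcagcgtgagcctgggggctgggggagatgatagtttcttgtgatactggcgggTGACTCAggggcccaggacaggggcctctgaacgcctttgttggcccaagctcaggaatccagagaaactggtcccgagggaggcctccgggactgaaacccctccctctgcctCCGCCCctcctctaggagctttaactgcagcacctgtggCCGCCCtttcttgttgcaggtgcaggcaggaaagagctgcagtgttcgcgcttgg
Cldn1, chr16:26371790-26372089, minus strand: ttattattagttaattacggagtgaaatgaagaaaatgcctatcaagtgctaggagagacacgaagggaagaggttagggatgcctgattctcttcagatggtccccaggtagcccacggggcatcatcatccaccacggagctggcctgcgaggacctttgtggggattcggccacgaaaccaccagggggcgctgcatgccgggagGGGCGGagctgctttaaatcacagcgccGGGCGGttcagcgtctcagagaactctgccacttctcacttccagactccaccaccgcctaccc
Cldn14, chr16:94008788-94009087, minus strand: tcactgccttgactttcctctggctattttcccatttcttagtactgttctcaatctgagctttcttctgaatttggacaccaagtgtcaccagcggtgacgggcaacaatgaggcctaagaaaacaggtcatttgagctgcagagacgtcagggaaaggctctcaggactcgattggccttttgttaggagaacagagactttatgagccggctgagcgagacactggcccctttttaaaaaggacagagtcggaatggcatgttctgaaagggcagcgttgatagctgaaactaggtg
Cldn2, chrX:139800558-139800857, plus strand: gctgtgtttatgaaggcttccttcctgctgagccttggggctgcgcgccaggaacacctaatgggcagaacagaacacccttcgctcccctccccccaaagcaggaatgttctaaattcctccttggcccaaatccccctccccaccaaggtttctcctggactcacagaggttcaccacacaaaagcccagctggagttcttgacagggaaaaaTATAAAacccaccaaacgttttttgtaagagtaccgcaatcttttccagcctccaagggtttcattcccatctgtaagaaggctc
Cldn10 upstream start, chr14:118787621-118787920, plus strand: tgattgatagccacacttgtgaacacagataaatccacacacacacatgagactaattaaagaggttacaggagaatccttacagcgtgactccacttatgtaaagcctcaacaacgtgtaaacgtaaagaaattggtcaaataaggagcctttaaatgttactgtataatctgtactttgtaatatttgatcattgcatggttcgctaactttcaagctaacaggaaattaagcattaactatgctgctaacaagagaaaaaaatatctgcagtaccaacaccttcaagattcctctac
Cldn10 downstream start, chr14:118854700-118854999, plus strand: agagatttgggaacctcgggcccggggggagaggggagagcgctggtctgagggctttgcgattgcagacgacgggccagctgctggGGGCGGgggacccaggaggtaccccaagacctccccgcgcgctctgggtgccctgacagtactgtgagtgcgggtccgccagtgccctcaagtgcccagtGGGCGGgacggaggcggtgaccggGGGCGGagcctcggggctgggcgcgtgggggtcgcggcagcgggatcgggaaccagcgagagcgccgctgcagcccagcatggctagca
The Cldn4 window held the AP-1 letters at positions 11 and 93, 240 and 158 bases before the start, and was the only one of the 14 with this match, which 7.81% of all 32851 windows of this length hold. The GC box letters stood in 7 of the 14 windows, from 6 of the 9 genes, against 35.7% of all windows, and the TATA box letters in that of Cldn2 alone, against 13.6%. The starts of Cldn10 differed in base composition, with 36.0% G and C and none of these matches upstream and 72.0% G and C and 3 GC boxes downstream. The STAT motif TTCCNGGAA, held by 1.15% of all windows, was found in none of the 14, and neither was the NF-kB motif, held by 0.155%. The grainyhead motif AACCGGTT (0.146%) and the HNF1 motif (0.009%) were not found either, which says only that these letters are not there. The matches overlapped no other motif. They are letters in a window and were not tested for binding.

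Whole sections were compared with a section as the unit and zones with a zone of a section as the unit, so that zones of 1 section were treated as separate samples. No source used here names the mouse behind each section, so p-values measure only the spread between sections of a group, which may be technical. Counts were summed over the spots of a section and compared by the quasi-likelihood test of edgeR, and p-values were adjusted by the Benjamini-Hochberg method over all genes tested, with a call at an adjusted p under 0.05. Levels are given as CPM, counts per 1e6 after TMM scaling of the library sizes, and for a 3′ count they compare sections for a gene and not genes with each other. Of 15305 genes tested in whole sections, 9279 (60.6%) were called, 4737 higher and 4542 lower in ischemic sections. Scaling by plain library totals moved the median log2 fold change of all genes up by 0.27, and the split became 5750 higher and 2829 lower. In a spot or section, fewer cells of a type and less RNA per cell cannot be told apart.

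In whole sections all 10 claudins were called, against 60.6% of all genes. Higher in ischemic sections were 5 (31.0% of all genes were), namely Cldn1, Cldn3, Cldn4, Cldn7 and Cldn14, and lower were 5 (29.7% of all genes were), namely Cldn2, Cldn8, Cldn10, Cldn16 and Cldn19. The median log2 fold change of the 10 genes was 0.36 and that of all genes 0.04. The sections of the 2 groups did not overlap for any of the 10 genes. For all genes this share was not counted, so it is not a result about the claudins.

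Among the genes that rose, Cldn14, the blocker of the calcium and magnesium route, was nearly absent from the normal sections, with 27 and 7 counts (0.73 and 0.25 CPM), and reached 598 and 512 counts (17.6 and 17.9 CPM) in the ischemic sections. This was a 33.7-fold difference (log2 5.07, SE 0.26, adjusted p = 6.84e-07). With 1 section left out the log2 value ran from 4.56 to 6.11. The latter came without normal section 1, the section that held most of the few counts. Cldn1, the sealing claudin, measured 4.61 and 5.07 CPM in normal and 25.5 and 29.2 CPM in ischemic sections, 5.66-fold higher (log2 2.50, SE 0.12, adjusted p = 5.39e-07). Cldn4 of the collecting duct measured 21.0 and 38.5 CPM in normal and 147 and 134 CPM in ischemic sections, 4.74-fold higher (log2 2.25, SE 0.23, adjusted p = 4.42e-05). For Cldn4 the normal sections stood farther apart than the ischemic ones, but both lay far below them. Cldn7, also a claudin of the distal nephron, measured 40.7 and 48.8 CPM in normal and 129 and 133 CPM in ischemic sections, 2.93-fold higher (log2 1.55, SE 0.12, adjusted p = 7.00e-06). Cldn3, its barrier-forming neighbour along the nephron, measured 31.4 and 24.9 CPM against 55.5 and 58.0 CPM, 2.01-fold higher (log2 1.01, SE 0.12, adjusted p = 0.000101).

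Among the genes that fell, Cldn10 showed the largest change, with 425 and 424 CPM in normal and 129.6 and 128 CPM in ischemic sections (log2 −1.72, SE 0.12, adjusted p = 4.51e-06). Cldn16 measured 25.2 and 22.9 CPM in normal and 9.36 and 7.89 CPM in ischemic sections (log2 −1.48, SE 0.12, adjusted p = 8.59e-06). Cldn8, which brings claudin-4 to the junction in collecting duct cells, measured 49.6 and 62.8 CPM against 22.6 and 25.1 CPM (log2 −1.23, SE 0.13, adjusted p = 4.16e-05). The levels of Cldn8 thus moved opposite to those of Cldn4 and Cldn7.

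The other declines were small. Cldn2 measured 294 and 229 CPM in normal and 201 and 183 CPM in ischemic sections (log2 −0.45, SE 0.15, adjusted p = 0.0265), and Cldn19 measured 42.1 and 44.0 CPM against 33.8 and 37.1 CPM (log2 −0.28, SE 0.10, adjusted p = 0.0284). Both calls were lost with plain library totals (adjusted p = 0.151 for Cldn2 and 0.931 for Cldn19) and without either ischemic section (adjusted p from 0.172 to 0.318 for Cldn2 and from 0.137 to 0.384 for Cldn19). The zones of the kidney took different shares of the normal and the ischemic sections, and with 4 zones weighted equally the log2 fold change of Cldn2 became −1.06 and that of Cldn19 −0.53, both called. For the other 8 genes the direction and the call held in every alternative run on whole sections.

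**Figure D1:**
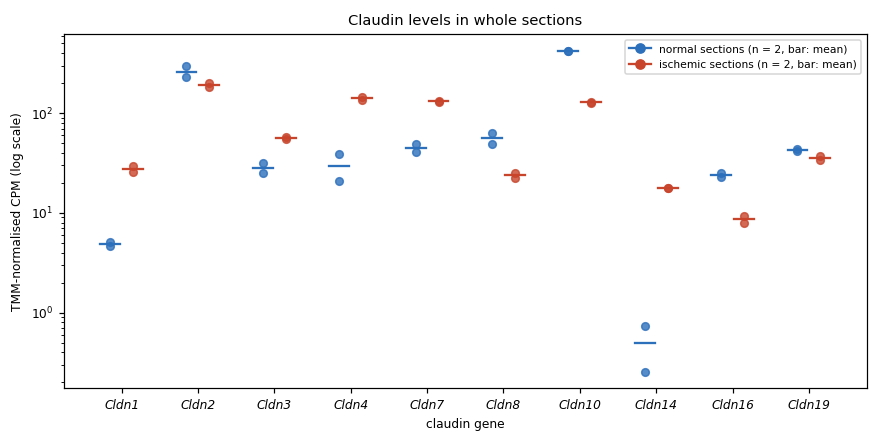
TMM-normalised CPM (log scale) of the 10 claudin genes in whole sections, a point per section and a bar at the mean of the 2 normal (blue) and 2 ischemic (red) sections. Cldn14 rises from under 1 CPM to 17.6 and 17.9 CPM, Cldn10 falls from 425 and 424 CPM to 129.6 and 128 CPM, and the groups of Cldn2 and Cldn19 lie close together.

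To place the claudins along the nephron, every spot was placed in 1 of 5 zones (cortex, outer stripe, inner stripe, inner medulla and pelvis) by marker genes that include no claudin, and counts were summed per section and zone. The normal sections held few inner medulla spots, 140 and 261, against 332 and 344 spots in the ischemic sections. The spots called inner medulla in normal sections held urothelial RNA, with the urothelial gene Psca at 631 and 1179 CPM, against 3.05 and 38.4 CPM in those of the ischemic sections. Zone markers also changed with ischemia. The summed level of the 5 straight tubule genes in the outer stripe fell from between 3881 and 4725 CPM to between 481 and 512 CPM. Slc14a2, a marker of the inner medulla, rose there from 122 and 351 to 709 and 587 CPM. In the inner stripe it rose from 42.0 and 65.3 to 494 and 421 CPM. Akr1b3, another inner medulla marker, fell in that zone from 2042 and 1001 to 113 and 157 CPM. In the ischemic sections inner medulla and inner stripe were hardly separated, since 8 of 13956 genes (0.0573%) differed between them, and 608 at an unadjusted p under 0.05. The part of these differences in the zone results was not tested.

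**Figure D2:**
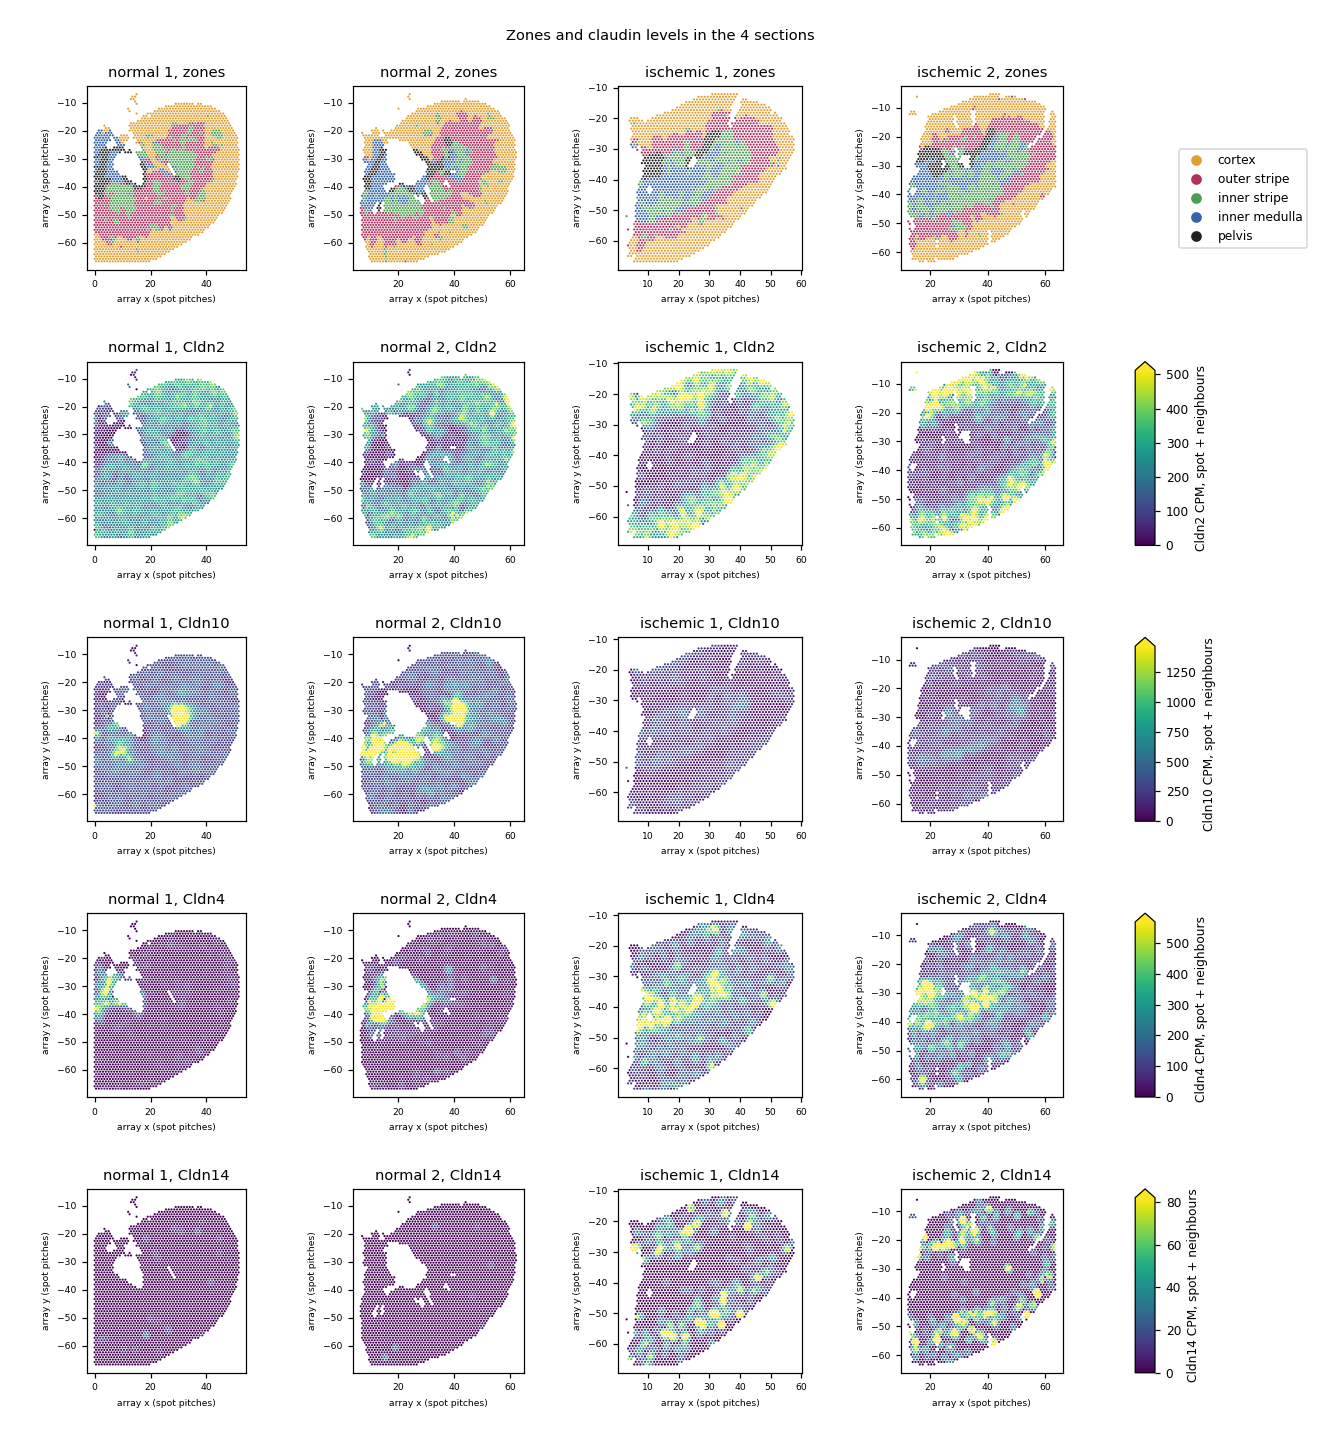
Array positions of the spots (axes in spot pitches) with the zone of each spot in the top row and, below, the CPM of Cldn2, Cldn10, Cldn4 and Cldn14 pooled over a spot and its up to 6 neighbours, for each of the 4 sections. Cldn2 covers the cortex and outer stripe of normal sections and the outer rim of ischemic ones, Cldn10 peaks in the inner stripe of normal sections, Cldn4 lies by the pelvis in normal sections and over all zones in ischemic ones, and Cldn14 appears in the outer zones of ischemic sections.

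In the normal sections the claudins were unevenly spread over the zones. Of the 10 genes, 7 differed between outer stripe and cortex (15.8% of all genes did), 6 between inner stripe and cortex (19.7%), 7 between inner medulla and cortex (37.6%) and 6 between pelvis and cortex (44.2%). Between inner stripe and outer stripe 6 differed (14.1%), between inner medulla and outer stripe 7 (41.0%), between pelvis and outer stripe 8 (45.9%), between inner medulla and inner stripe 5 (17.2%) and between pelvis and inner stripe 7 (29.5%). Between pelvis and inner medulla, the pair of zones with mixed urothelium, 1 differed (4.89%), which was Cldn10. Cldn14, with few counts, was among the genes called between outer stripe and cortex (log2 2.15). This call was lost without normal section 1 (log2 1.29). It was also lost when either ischemic section left the common fit, where the size hardly moved (log2 2.14 each time).

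Cldn2, the cation and water pore of the proximal tubule, measured 363 and 312 CPM in the normal cortex and 372 and 313 CPM in the normal outer stripe, which did not differ (adjusted p = 0.977). It was lower in the inner stripe at 246 and 144 CPM and lower again in the inner medulla at 129 and 72.1 CPM, each step called against the zone before it (adjusted p = 0.019 and 0.00998). The pelvis followed at 68.7 and 47.1 CPM, not different from the inner medulla (adjusted p = 0.120). In normal sections the level of this gene was thus alike in the means of cortex and outer stripe and lower inwards. The step from cortex to inner stripe was not called when either ischemic section was left out of the common fit, though its size hardly moved (log2 −0.790 and −0.793 against −0.782).

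In ischemic sections Cldn2 kept a level of 408 and 400.0 CPM in the cortex. The outer stripe held 155 and 159 CPM, the inner stripe 49.0 and 50.2 CPM, the inner medulla 35.2 and 39.6 CPM and the pelvis 73.0 and 64.3 CPM. In the cortex the difference from normal was not called (log2 0.26, SE 0.22, adjusted p = 0.377), though it was called, and higher, without normal section 1 (log2 0.37, adjusted p = 0.0015) and with library totals (log2 0.48, adjusted p = 0.0131). In the outer stripe Cldn2 fell (log2 −1.13, SE 0.23, adjusted p = 0.000302), as in the inner stripe (log2 −1.98, SE 0.24, adjusted p = 1.84e-06) and the inner medulla (log2 −1.39, SE 0.27, adjusted p = 0.000433). The small decline in whole sections thus stood beside larger declines in 3 zones. The effect was below that in the cortex in all of these zones (differences of −1.39, −2.24 and −1.65 on the log2 scale, adjusted p = 0.00729, 0.000185 and 0.00504). Inner stripe spots of normal sections also held straight tubule RNA, the 5 genes summing to between 1282 and 3108 CPM. In the ischemic inner stripe they summed to between 199 and 200 CPM, of which Atp11a gave 163 and 161 CPM. The part of this in the Cldn2 values was not tested.

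Cldn10, which serves both the proximal tubule and the thick ascending limb, measured 782 and 962 CPM in the normal inner stripe, the zone where thick limbs are packed. It measured 504 and 468 CPM in the outer stripe, 385 and 322 CPM in the cortex and 266 and 319.6 CPM in the pelvis. Inner stripe was above outer stripe (adjusted p = 0.0245) and cortex (adjusted p = 0.000544), while outer stripe and cortex did not differ (adjusted p = 0.226). In the inner medulla the normal sections were far apart at 354 and 784 CPM, and the call against the cortex (log2 0.70, adjusted p = 0.0271) turned to −0.14 without normal section 2.

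After ischemia Cldn10 fell in every zone, to 173 and 156 CPM in the cortex, 66.8 and 67.7 CPM in the outer stripe, 201 and 217 CPM in the inner stripe, 156 and 163 CPM in the inner medulla and 138 and 110.3 CPM in the pelvis. The outer stripe lost most, 7.22-fold (log2 −2.85, SE 0.25, adjusted p = 1.77e-08), and changed from the zone with the middle level in normal sections to the one with the lowest. This fall was larger than that in the cortex (difference −1.75, SE 0.34, adjusted p = 0.00214). The cortex fell by 1.11 on the log2 scale (SE 0.24, adjusted p = 0.00102), a call lost without either ischemic section (adjusted p = 0.0561 and 0.0863). The change was −2.06 in the inner stripe (SE 0.24, adjusted p = 1.26e-06), and −1.85 in the inner medulla (SE 0.25, adjusted p = 1.10e-05), or −1.15 there without normal section 2. It was −1.24 in the pelvis (SE 0.26, adjusted p = 0.00155), a call likewise lost without either ischemic section. The counts pool the forms of Cldn10, so the form that fell cannot be told apart.

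Cldn16 and Cldn19, the pair of the calcium and magnesium route, shared high levels in the normal inner stripe and differed elsewhere. Cldn16 measured 45.7 and 42.8 CPM in the inner stripe and 37.9 and 37.7 CPM in the outer stripe, which did not differ (adjusted p = 0.383), and both were above the inner medulla, the cortex and the pelvis, whose values ranged from 13.2 to 20.02 CPM. Cldn19 measured 124 and 135 CPM in the inner stripe, 53.3 and 46.0 CPM in the outer stripe and 16.7 and 12.4 CPM in the cortex, each step called (adjusted p = 0.000386 for inner against outer stripe and 5.16e-06 for outer stripe against cortex). In the inner medulla Cldn19 measured 63.2 and 129.6 CPM, so that here too normal section 2 stood higher. Cortex was thus the lowest zone for Cldn19, and for Cldn16 it did not differ from inner medulla or pelvis.

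With ischemia the pair parted. Cldn16 fell in all 5 zones, to 8.23 and 5.29 CPM in the cortex, 13.5 and 13.7 CPM in the outer stripe, 11.1 and 9.46 CPM in the inner stripe, 7.21 and 3.38 CPM in the inner medulla and 6.26 and 6.57 CPM in the pelvis. The inner stripe showed the largest fall (log2 −2.11, SE 0.21, adjusted p = 1.60e-07). The change was −1.47 in the outer stripe (SE 0.18, adjusted p = 8.27e-07) and −1.29 for the cortex (SE 0.20, adjusted p = 3.33e-05). For the inner medulla it was −1.70 (SE 0.34, adjusted p = 0.000698), or −2.34 to −1.26 with 1 section left out. The pelvis, with 19 and 30 counts in normal and 9 and 10 in ischemic sections, was called (log2 −1.26, adjusted p = 0.0295) but not without any of 3 of the sections (adjusted p from 0.0939 to 0.142).

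Cldn19 held more of its level. It measured 83.7 and 77.4 CPM in the ischemic inner stripe, lower than normal (log2 −0.68, SE 0.20, adjusted p = 0.0074), and 26.3 and 30.3 CPM in the outer stripe, also lower (log2 −0.82, SE 0.20, adjusted p = 0.00184). Both calls were lost with library totals, and without ischemic section 1 (adjusted p = 0.104 and 0.106), and that of the inner stripe also without ischemic section 2 (adjusted p = 0.158). The cortex measured 11.6 and 13.2 CPM, the inner medulla 76.3 and 78.0 CPM and the pelvis 57.0 and 44.6 CPM, with no call in these zones (adjusted p = 0.405, 0.183 and 0.523). Without normal section 1 it was called lower in the inner medulla (log2 −0.71, adjusted p = 0.00013) and without normal section 2 its direction there turned (log2 0.29), while the cortex was called lower without normal section 2 (log2 −0.45, adjusted p = 0.0131). The order of its zones was the same as in normal sections, from inner stripe to cortex. The difference in response between Cldn16 and Cldn19 was not tested.

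Cldn14, their blocker, had 34 counts in the normal sections together, of which 23 lay in the outer stripe (19 and 4), 7 in the cortex and 4 in the inner stripe. The inner medulla and the pelvis had 0. Ischemic sections measured 29.1 and 30.0 CPM in the outer stripe, 20.7 and 21.6 CPM in the cortex, 11.1 and 11.9 CPM in the inner stripe, 2.50 and 3.07 CPM in the inner medulla and 2.78 and 5.91 CPM in the pelvis. The gene rose in the outer stripe (log2 4.52, SE 0.27, adjusted p = 4.52e-10, or 3.97 to 5.89 with 1 section left out). It also rose in the cortex (log2 6.19, SE 0.33, adjusted p = 3.42e-10) and in the inner stripe (log2 4.37, SE 0.49, adjusted p = 1.20e-06). Against the limit that 0 counts allow, 3 counts over both normal sections, it was at least 2.87-fold higher in the inner medulla and at least 4.66-fold higher in the pelvis. Outer stripe and cortex did not differ in ischemic sections (adjusted p = 0.0562), and both stood above the inner stripe (adjusted p = 0.00015 and 0.0034), the latter not without either ischemic section (adjusted p = 0.216 and 0.237). With zones drawn from the spot alone the inner stripe was 0.45 above the cortex on the log2 scale, with no call.

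In ischemic sections Cldn14 and Cldn16 had their highest means in the outer stripe, and Cldn19 had its highest in the inner stripe. In the ischemic inner stripe the thick ascending limb genes summed to between 5769 and 5798 CPM, of which Umod gave 5426 and 5396 CPM. Across the spots of the ischemic sections the Spearman correlation of pooled CPM was −0.14 and −0.13 between Cldn14 and the thick ascending limb sum. Between Cldn14 and the summed proximal convoluted tubule genes it was 0.24 and 0.26. With the summed calcium and magnesium genes listed below it was 0.29 and 0.34, and with Cldn16 it was 0.21 and 0.22. These values are over 2401 and 2613 spots that share counts with their neighbours, rest on sparse counts and are descriptions, and spots hold several cells.

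Cldn3, a barrier claudin found from the thick limb to the collecting duct, was low in the normal cortex at 11.3 and 7.35 CPM and measured 64.7 and 50.8 CPM in the outer stripe, 46.8 and 31.2 CPM in the inner stripe, 33.4 and 43.0 CPM in the inner medulla and 42.3 and 26.4 CPM in the pelvis. The cortex was below the pelvis, its nearest neighbour in the order of levels (adjusted p = 1.72e-05), and no other neighbours in this order differed. Farther apart in this order, outer stripe was above pelvis (adjusted p = 0.0115). Ischemic sections measured 21.8 and 23.4 CPM in the cortex and 118 and 114 CPM in the outer stripe, and both zones were higher than normal (log2 1.24, SE 0.21, adjusted p = 0.000119 and log2 1.00, SE 0.18, adjusted p = 9.60e-05). In the inner stripe, at 41.1 and 49.2 CPM, and the inner medulla, at 47.7 and 54.4 CPM, no difference was called (log2 0.18, adjusted p = 0.511 and log2 0.38, adjusted p = 0.236), while library totals and zones drawn from the spot alone gave calls there, higher in both. The effect in the inner stripe was below that in the cortex (difference −1.06, adjusted p = 0.0256). The pelvis, at 67.5 and 70.2 CPM, was higher (log2 1.02, adjusted p = 0.00683), but not without either ischemic section (adjusted p = 0.0945 and 0.115). Outer stripe was the zone with the highest level of Cldn3 in both conditions, and in ischemic sections it stood above the pelvis, the next zone (adjusted p = 0.0145).

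Cldn4, Cldn7 and Cldn8, claudins of the collecting duct, had their highest means in the pelvis and inner medulla of normal sections and their lowest in the outer stripe. Cldn4 measured 212 and 221 CPM in the pelvis and 93.9 and 166 CPM in the inner medulla, against 14.8 and 23.7 CPM in the inner stripe, 15.2 and 18.2 CPM in the cortex and 5.58 and 11.8 CPM in the outer stripe. Cldn7 measured 163 and 128 CPM in the pelvis, 100.2 and 133 CPM in the inner medulla, 57.6 and 86.4 CPM in the inner stripe, 40.6 and 39.4 CPM in the cortex and 24.2 and 27.8 CPM in the outer stripe. Cldn8 measured 158 and 179 CPM in the pelvis, 107 and 173 CPM in the inner medulla, 60.9 and 74.0 CPM in the inner stripe, 59.6 and 61.0 CPM in the cortex and 25.8 and 30.7 CPM in the outer stripe. For all 3 genes the pelvis did not differ from the inner medulla (adjusted p = 0.140, 0.441 and 0.576), the inner medulla was above the inner stripe (adjusted p = 9.53e-06, 0.0128 and 0.000869) and the outer stripe was below the cortex (adjusted p = 0.0290, 0.0215 and 0.000205). The last of these calls was lost for Cldn4 and Cldn7 when either ischemic section was left out of the common fit, though the sizes hardly moved. They were −0.961 and −0.966 on the log2 scale against −0.968 for Cldn4, and −0.625 and −0.630 against −0.626 for Cldn7. For Cldn4 the call was also lost with library totals (adjusted p = 0.0662) and without normal section 1 (log2 −0.66). Urothelial RNA moved with the same zones, as the levels of Psca above show, and its part was not tested.

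In ischemic sections the zones lay closer together for Cldn4. It measured 128 and 105 CPM in the cortex, 129 and 102 CPM in the outer stripe and 161 and 155 CPM in the inner stripe. The inner medulla held 311 and 297 CPM and the pelvis 215 and 248 CPM. No neighbours in the order of these levels differed, but zones farther apart did. Inner medulla was above cortex (log2 1.39, adjusted p = 0.000139) and outer stripe (log2 1.40, adjusted p = 0.000239). Pelvis was also above cortex (log2 0.99, adjusted p = 0.00454) and outer stripe (log2 1.00, adjusted p = 0.00795). The outer stripe, the lowest zone in normal sections, rose 13.5-fold (log2 3.76, SE 0.29, adjusted p = 2.85e-09, or log2 3.40 to 4.36 with 1 section left out). The inner stripe rose (log2 3.09, SE 0.29, adjusted p = 7.14e-08), as did the cortex (log2 2.80, SE 0.26, adjusted p = 9.78e-08) and the inner medulla (log2 1.20, SE 0.26, adjusted p = 0.00115). In the pelvis, where the normal level was highest, the sections overlapped and no difference was called (log2 0.10, SE 0.25, adjusted p = 0.824). The pelvis spots of the ischemic sections held less urothelial RNA, with Upk1a, a uroplakin, at 18.8 and 34.1 CPM against 827 and 989 CPM, and Psca at 378 and 493 CPM against 2525 and 2502 CPM. They held more Umod of the thick limb, at 3224 and 2584 CPM against 1294 and 1861 CPM, and the part of these differences in the pelvis results was not tested. The effect was smaller in the inner medulla and the pelvis than in the cortex (differences of −1.60 and −2.71, adjusted p = 0.00826 and 0.000166).

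Cldn7 rose in every zone. It measured 89.5 and 81.9 CPM in the ischemic cortex, 107 and 104 CPM in the outer stripe, 221 and 209 CPM in the inner stripe, 255 and 261 CPM in the inner medulla and 207 and 248 CPM in the pelvis. The rise was largest in the outer stripe (log2 2.03, SE 0.18, adjusted p = 1.92e-08), where it exceeded that in the cortex (difference 0.93, adjusted p = 0.0185). On the log2 scale it was 1.60 for inner stripe, 1.13 for inner medulla and 1.10 for cortex (adjusted p = 6.19e-07, 7.46e-05 and 4.90e-05). For the pelvis it was 0.65 (adjusted p = 0.0131), a call lost without either ischemic section (adjusted p = 0.0997 and 0.261).

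Cldn8 fell in every zone and kept the order of its zones. It measured 27.5 and 24.6 CPM in the ischemic cortex, 13.1 and 13.4 CPM in the outer stripe, 24.3 and 31.7 CPM in the inner stripe, 35.8 and 43.0 CPM in the inner medulla and 49.4 and 67.0 CPM in the pelvis. The falls ranged from 1.09 on the log2 scale in the outer stripe to 1.86 in the inner medulla, with adjusted p from 9.54e-07 to 0.000132, and none was called different from that in the cortex (adjusted p from 0.148 to 0.953), except for the inner medulla with each section as a block (difference −0.65, adjusted p = 0.0367). All of these calls held when any section was left out. Genes with like zones in normal sections thus rose (Cldn4, Cldn7) or fell (Cldn8).

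Cldn1 was low in all zones of the normal sections, from 2.71 to 7.47 CPM, and no neighbours in the order of its zones differed. In ischemic sections it measured 49.6 and 57.3 CPM in the outer stripe, above the pelvis with 25.7 and 18.4 CPM (adjusted p = 0.000216), the cortex with 19.0 and 23.7 CPM, the inner stripe with 16.4 and 19.1 CPM and the inner medulla with 9.98 and 11.7 CPM. The gene rose in each zone, most in the outer stripe (log2 2.92, SE 0.17, adjusted p = 8.18e-11), and 4.61-fold in the cortex (SE 0.18 on the log2 scale, adjusted p = 1.67e-08). The log2 fold change was 2.05 for the inner stripe (SE 0.26, adjusted p = 2.99e-06), 1.67 for the pelvis (SE 0.33, adjusted p = 0.00115) and 1.61 for the inner medulla (SE 0.40, adjusted p = 0.0041). The rise in the outer stripe did not pass the test against that in the cortex (adjusted p = 0.0784), but did with each section as a block (difference 0.71, adjusted p = 0.0334). The call in the pelvis was lost with zones drawn from the spot alone (log2 0.16, adjusted p = 0.883) and that in the inner medulla without the spots near a zone boundary (adjusted p = 0.0847).

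**Figure D3:**
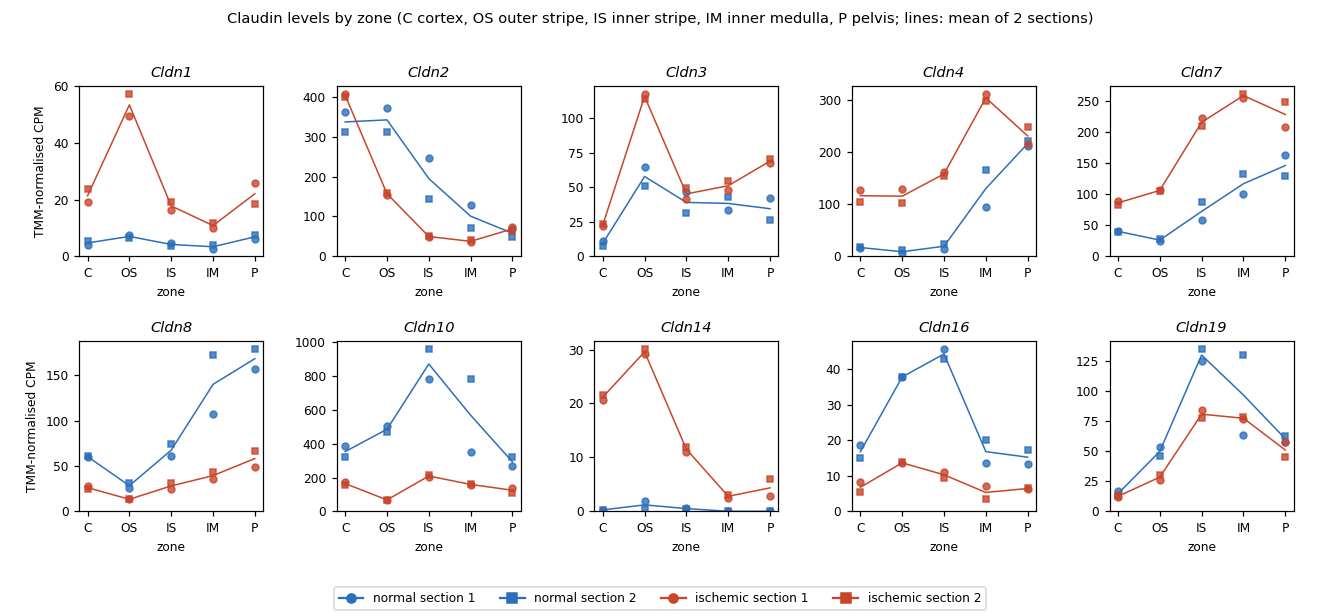
TMM-normalised CPM (linear axes from 0) of each claudin gene by zone, with circles and squares for sections 1 and 2 of the normal (blue) and ischemic (red) group and lines through the means of 2 sections. In normal sections Cldn10, Cldn16 and Cldn19 peak in the inner stripe, and Cldn4, Cldn7 and Cldn8 are highest in the pelvis and lowest in the outer stripe. In ischemic sections Cldn1, Cldn3 and Cldn14 peak in the outer stripe.

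Counted over the zones, ischemic and normal sections differed for 8 of the 10 claudins in the cortex (40.8% of 13956 genes tested did). All 10 differed in the outer stripe (57.8%). Within the inner stripe 9 did (48.9%), within the inner medulla 8 (36.7%) and within the pelvis 7 (25.8%). Without ischemic section 1 or 2 the count in the pelvis was 3 and 2, and with zones drawn from the spot alone it was 4. The ischemic effect differed from that in the cortex for 3 claudins in the outer stripe (12.7% of all genes). For the inner stripe 2 did (11%), for the inner medulla 2 (8.3%) and for the pelvis 1 (5.84%), and none of these 8 differences was called without ischemic section 1, with only that of Cldn4 in the pelvis called without ischemic section 2. Their sizes changed little, as in the difference of Cldn2 in the inner stripe, which was −2.21 and −2.28 without ischemic section 1 and 2. With each section as a block, the outer stripe had 6 such claudins, the inner stripe had 4, the inner medulla also had 4, and the pelvis had 1.

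**Figure D4:**
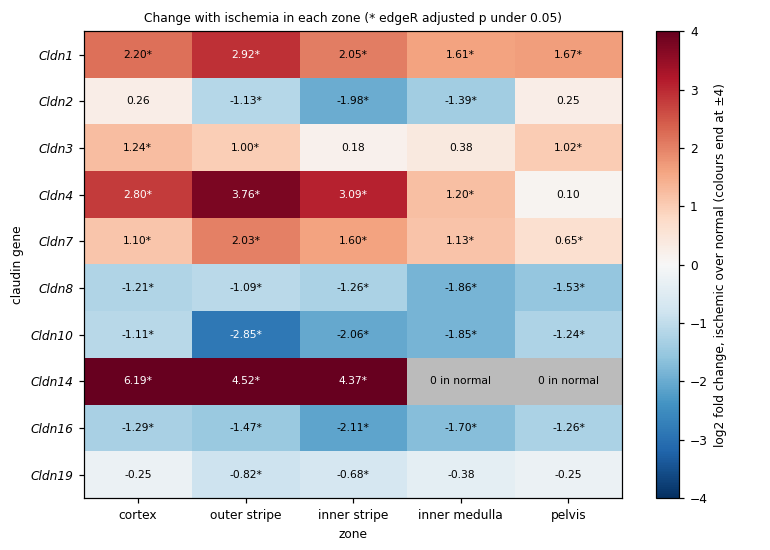
Log2 fold change of ischemic over normal sections for each claudin gene (rows) and zone (columns), in red where higher and blue where lower, with asterisks where the edgeR adjusted p was under 0.05 and grey where the normal sections had 0 counts. Cldn1 and Cldn7 are higher and Cldn8, Cldn10 and Cldn16 lower in all zones, while Cldn2 is called in the outer stripe, inner stripe and inner medulla and not in the cortex or pelvis.

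Within the ischemic sections, 7 claudins differed between outer stripe and cortex (27.4% of all genes did), 5 between inner stripe and cortex (41.6%), 8 between inner medulla and cortex (42.6%) and 7 between pelvis and cortex (32.2%). Of the remaining pairs with the outer stripe, 8 differed against the inner stripe (34.0%), 10 against the inner medulla (35.4%) and 10 against the pelvis (22.0%). Between the inner zones it was 1 each time. This was Cldn14 in inner medulla against inner stripe (0.0573% of all genes), on 9 and 10 counts in the ischemic inner medulla. It was Cldn8 in pelvis against inner stripe (3.17%) and Cldn1 in pelvis against inner medulla (2.91%). The outer stripe was the highest zone for Cldn1 and Cldn3 and the lowest for Cldn8 and Cldn10, beyond its neighbour in the order of levels. The calls between outer stripe and cortex were lost for Cldn2, Cldn8, Cldn10 and Cldn19 without either ischemic section, and for Cldn16 without ischemic section 2.

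Partner proteins of the claudins were taken as a list of 21 genes for scaffolds, other strand proteins and polarity proteins. In whole sections 9 were higher (31.0% of all genes were), 3 lower (29.7%) and 9 not called, with a median log2 fold change of 0.18. Among the largest changes were rises of Magi3 (log2 1.34, SE 0.25, adjusted p = 0.00154), a scaffold, at 1.38 and 2.03 CPM in normal and 3.74 and 4.82 CPM in ischemic sections, and of Jam2 (log2 1.20, SE 0.13, adjusted p = 4.87e-05), a junctional adhesion molecule. Lsr, angulin-1 of the corners where 3 cells meet, also rose (log2 1.05, SE 0.09, adjusted p = 1.78e-05). The occludin gene Ocln was 0.34 higher on the log2 scale (adjusted p = 0.0144), and the scaffold gene Tjp3 was lower (log2 −0.99, adjusted p = 0.00144). By zone, 7 of the 21 were higher and 3 lower in the cortex (40.8% of all genes were called there). The outer stripe had 8 higher and 1 lower (57.8%), the inner stripe 5 and 2 (48.9%), the inner medulla 2 and 3 (36.7%), and the pelvis 2 and 3 (25.8%).

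Of 11 genes for calcium and magnesium handling along the nephron, 8 were lower (29.7% of all genes were), 1 higher (31.0%) and 2 not called in whole sections, with a median log2 fold change of −1.02. Pvalb, the parvalbumin of the distal convoluted tubule, measured 48.2 and 36.3 CPM in normal and 0.35 and 0.21 CPM in ischemic sections (log2 −7.19, SE 0.25, adjusted p = 1.22e-07). Egf, a magnesium-regulating hormone of the distal nephron, measured 615 and 665 CPM against 7.51 and 7.64 CPM. Calb1, the calcium buffer calbindin (log2 −3.21), and Slc8a1, the sodium-calcium exchanger (log2 −2.44), fell as well. Casr, the calcium-sensing receptor that controls Cldn14 in the thick limb, measured 8.13 and 7.17 CPM in normal and 2.06 and 1.92 CPM in ischemic sections (log2 −1.94, SE 0.18, adjusted p = 2.09e-05) and so fell while Cldn14 rose. By zone, 8 of the 11 were lower and 0 higher in the cortex (40.8% of all genes were called). The outer stripe had 7 lower and 3 higher (57.8%), the inner stripe 5 and 2 (48.9%), the inner medulla 6 and 1 (36.7%), and the pelvis 1 and 1 (25.8%).

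Markers of the cell types of the nephron changed too. Lower in whole sections were all 7 proximal convoluted tubule genes, all 5 straight tubule genes, all 7 thick ascending limb genes, 3 of 4 distal convoluted tubule genes, 2 of 6 principal cell genes, 4 of 5 intercalated cell genes, 2 of 4 thin limb genes and 2 of 5 podocyte genes. Of the remaining genes of these lists 1 intercalated, 1 thin limb and 1 podocyte gene were higher. Slc12a1, the salt carrier of the thick limb, had a log2 fold change of −3.23 and Umod, its secreted protein uromodulin, one of −0.51. The median of the 7 thick ascending limb genes was −1.37, with Cldn10 at −1.72, Cldn16 at −1.48 and Cldn19 at −0.28. Aqp2, the water channel of principal cells, was not called in whole sections (log2 −0.35, adjusted p = 0.122), while Cldn8 fell. In the inner medulla 4 of the 6 principal cell genes were lower (36.7% of all genes were called there). Aqp2 measured 2782 and 2251 CPM in the normal and 443 and 971 CPM in the ischemic inner medulla. All 5 injured tubule genes were higher, with Havcr1 at 1.17 and 2.14 CPM in normal and 1288 and 1280 CPM in ischemic sections.

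Cells outside the tubule changed too. The summed level of the 6 urothelium genes, of which 5 fell, was 244 to 532 CPM in normal and 32.2 to 58.5 CPM in ischemic sections. Cldn4 is a gene also known from urothelium. Leukocyte genes rose in 3 of 6 cases (summed level 67.2 to 87.9 against 241 to 247 CPM), stroma genes in 4 of 5 with 1 lower (269 to 349 against 423 to 439 CPM) and endothelium genes in 3 of 5 with 1 lower (203 to 207 against 229 to 243 CPM). The part of these changes in the claudin levels was not tested.

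Genes whose pattern over the spots of the normal sections was most like that of each claudin were sought among 6571 genes with at least 1000 counts, by the mean Spearman correlation of pooled CPM over both normal sections. For Cldn2 they included Cltrn (0.68) and Pecr (0.66), and for Cldn10 they were Slc12a1 (0.63), Umod (0.62) and Wfdc15b (0.58). Cldn16 was most like Slc12a1 (0.50), Umod (0.50) and Egf (0.49), and Cldn19 most like Cryab (0.65), Mrps6 (0.65) and Cd24a (0.63). Cldn10 and Cldn16 thus had the same leading pair, and Cldn19 did not.

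For the collecting duct claudins the leading genes included Krt7 (0.59) and Sh3bgrl3 (0.56) for Cldn4, Mal (0.68), Krt7 (0.65) and Pkm (0.63) for Cldn7, and Mal (0.73), Itm2b (0.66) and Cd9 (0.65) for Cldn8. Cldn3 was most like Cryab (0.66), Kcnk1 (0.64) and Hist1h1c (0.64). For Cldn1, led by Txn1, Chpt1 and Rnf128, and for Cldn14, led by Rdh16f2, Azgp1 and Cyp2d9, the highest values were 0.16 and 0.18, on sparse counts. Correlations over spots share the spots' depth and their neighbours, and genes at low counts give low values.

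In the ischemic sections the same search over 6696 genes, added after seeing the data, gave other leaders for several claudins. Cldn1 was then most like Krt20 (0.55), Havcr1 (0.54) and Prdx5 (0.53), and Cldn14 most like Kap (0.46), Havcr1 (0.45) and Hmox1 (0.43), where Havcr1 and Krt20 are genes of injured tubules and Kap is an androgen-driven gene of the proximal tubule. The summed level of the 5 injured tubule genes, in which Lcn2 gave the most counts, correlated with Cldn14 at −0.22 and −0.23 and with Cldn1 at −0.03 and −0.02 in the ischemic sections. Cldn2 was most like Dbi (0.88), Gpx3 (0.87) and Spink1 (0.87), and for Cldn10 the leading genes included Ivns1abp (0.58) and Atp1b1 (0.58). Cldn4 was most like Krt7 (0.72), Cldn7 (0.71) and Sh3bgrl3 (0.68), Cldn7 most like Pkm (0.81), Epcam (0.81) and Wfdc2 (0.81), and Cldn8 most like Wfdc2 (0.49), Clu (0.49) and Ly6e (0.48). Cldn19 was most like Lcn2 (0.75), Umod (0.74) and Mrps6 (0.74), Cldn3 most like Anxa2 (0.70), Hspb1 (0.70) and Cryab (0.69), and Cldn16 reached only 0.27 with Flnc, 0.26 with Krt20 and 0.26 with Cryab.

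Pairs of claudins also changed in how their patterns met. Cldn4 and Cldn7 correlated at 0.49 and 0.55 in the normal and 0.70 and 0.72 in the ischemic sections, and Cldn4 and Cldn8 at 0.52 and 0.56 and at 0.38 and 0.47. Cldn10 and Cldn16 correlated at 0.32 and 0.35 in the normal sections and at −0.17 and −0.10 in the ischemic sections. Cldn3 and Cldn4, neighbours on chromosome 5, correlated at −0.02 and 0.11 and then at 0.32 and 0.31, and Cldn1 and Cldn16, neighbours on chromosome 16, stayed between −0.03 and 0.13.

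Of the 24 other genes named Cldn or Cldnd, 6 reached 100 counts over the 4 sections, 7 were tested and 8 had 0 counts. Higher in ischemic sections were Cldn15, a cation pore best known from the gut (14.2 and 18.7 CPM against 31.2 and 35.0 CPM, log2 1.01, adjusted p = 0.000196), Cldn12 (23.2 and 21.0 CPM against 27.4 and 28.4 CPM, log2 0.34, adjusted p = 0.0138) and Cldnd1 (log2 0.30, adjusted p = 0.0171). Cldn23 was lower (58 and 138 counts against 24 and 38, log2 −1.68, adjusted p = 0.021), and Cldn11, named after its values were seen since it had only 99 counts, was lower as well (log2 −2.02, adjusted p = 0.00497). Cldn5, the claudin of endothelium, measured 12.7 and 15.8 CPM in normal and 14.3 and 16.4 CPM in ischemic sections and was not called (log2 0.11, adjusted p = 0.496), nor was Cldn34c1 (log2 0.28, adjusted p = 0.460).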

How the data were processed

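The 4 kidney sections used here are a part of the study, and further sections described in its methods were not analysed here. The sample labels do not name the Visium slide of a section. The authors processed the reads with Space Ranger (version 1.3.0 per the file headers, with mm10 named in the submitters' processing notes) and deposited the raw UMI counts of each gene in each spot, not normalized. The methods name 2 technical replicates of each mouse, and the sources used here do not say which sections share a mouse. Conditions came from the sample labels. Spots under tissue were used, 10312 in all, without a filter on depth. Counts were summed per section, and per section and zone of at least 20 spots, and tested in R 4.3.3 with edgeR 4.0.16, by its quasi-likelihood test after TMM scaling and its filterByExpr filter, at a Benjamini-Hochberg adjusted p of 0.05. The zone model had 1 group per condition and zone, so all groups shared 1 estimate of the spread, and zones of 1 section were treated as separate samples.

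For the zones, counts of marker genes were pooled over each spot with as many as 6 adjacent spots, turned into log CPM, averaged over each list and scaled to SD units in each section, and the highest score gave the zone. Lists were Slc5a2, Slc5a12, Slc34a1, Slc22a6, Slc22a8 and Slc12a3 for cortex, Slc7a13, Cyp7b1, Serpina1f, Slc22a13 and Atp11a for outer stripe, Slc12a1, Umod and Ptger3 for inner stripe, Slc14a2, Akr1b3, Aqp2 and Fxyd4 for inner medulla, and Psca, Krt5, Upk3a, Upk2, Upk1b and Upk1a for pelvis, which needed at least 10 counts and a place in the top 5% of the section. Between 16.0% and 20.1% of spots had their top scores less than 0.25 SD apart. No array position was treated as a replicate.

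The claudins and all gene lists were chosen with earlier results of these data known. Named besides the claudins were the other claudin genes with at least 100 counts, the 3 genes most like each claudin, and the 4 largest called changes of the partner and the calcium and magnesium lists. Some genes that these rules name are not reported here. Ocln, Tjp3, Casr, Slc12a1, Umod, Aqp2, Havcr1, Psca, Upk1a, Slc14a2, Akr1b3 and Atp11a were named outside this rule. A group at 0 counts was given a limit of 3 counts, which covers counting error only. Counts were simulated for the whole-section comparison (15305 genes). There 75 of 100 genes changed 2-fold and 96 of 100 changed 4-fold were recovered, with 1 false call. For the cortex (13956 genes) it was 86 and 95 of 100, with 4 false calls. The simulation changed only 200 genes, as many up as down, and drew every library on its own. In the data 60.6% of genes were called in whole sections, and zones of 1 section are not separate samples. The simulated false calls therefore do not measure those in the data. Alternatives were DESeq2 1.42.0, no filter on low counts, no mitochondrial genes, a replicate block, a section block, other zone rules and each section left out. Library totals without TMM and 4 zones weighted equally were added after seeing the data.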

Additional observations from a re-analysis of the deposited data

Results flagged for a closer look

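The ischemic effect of 5 claudins differed between a zone and the cortex by a test of the difference itself in the edgeR model of zones, each value being the log2 fold change of ischemic over normal sections in the zone minus that in the cortex. For Cldn2 this was −1.39 in the outer stripe (SE 0.32, adjusted p = 0.00729), −2.24 in the inner stripe (SE 0.33, adjusted p = 0.000185) and −1.65 in the inner medulla (SE 0.35, adjusted p = 0.00504). The part of the straight tubule RNA in normal inner stripe spots, given above, was not tested. For Cldn10 the difference was −1.75 in the outer stripe (SE 0.34, adjusted p = 0.00214), and for Cldn7 it was 0.93 there (SE 0.25, adjusted p = 0.0185). For Cldn3 it was −1.06 in the inner stripe (SE 0.30, adjusted p = 0.0256). For Cldn4 it was −1.60 in the inner medulla (SE 0.36, adjusted p = 0.00826) and −2.71 in the pelvis (SE 0.36, adjusted p = 0.000166). Without ischemic section 1 none of the 8 was called, and without ischemic section 2 only that of Cldn4 in the pelvis was. The difference of Cldn7 lost its call with library totals (adjusted p = 0.0514), and that of Cldn3 with zones drawn from the spot alone (adjusted p = 0.200). Groups of 2 sections are too small for a test of outlying sections.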

How the results depend on the processing

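In whole sections 56 of 60 values under settings other than leaving out a section kept direction and side of the threshold. The exceptions were Cldn2 with library totals (log2 −0.16, adjusted p = 0.151) and Cldn19 with library totals (−0.016, adjusted p = 0.931), with no filter on low counts (−0.26, adjusted p = 0.0501) and with DESeq2 (−0.32, adjusted p = 0.0639). Leaving out 1 section gave log2 fold changes from −0.64 to −0.24 for Cldn2 and from −0.34 to −0.20 for Cldn19. Library totals moved the median of all genes up by 0.22 (cortex), 0.40 (outer stripe), 0.36 (inner stripe), 0.18 (inner medulla) and 0.097 (pelvis). The number of genes called in whole sections ran from 6493 to 10877 over all settings.

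By zone, directions turned for Cldn2 in the pelvis (−0.81 from the spot alone, and −0.0097 to 0.53 with a section left out), Cldn3 in the inner stripe (−0.061 to 0.58), Cldn4 in the pelvis (−0.0040 to 0.20), Cldn19 in the inner medulla (−0.71 to 0.29), Cldn10 in the normal inner medulla against cortex (−0.14 to 1.27) and Cldn14 in the ischemic inner stripe against cortex (0.45 from the spot alone). The claudins called in the pelvis numbered 4 from the spot alone and 2 to 8 with a section left out. Effects that differ from the cortex numbered, in the outer stripe, 5 with no filter, 6 with a section block and 0 to 5 with a section left out, in the inner stripe 4 with a section block and 0 to 4, in the inner medulla 4 with a section block and 0 to 6, and in the pelvis 2 from the spot alone and 0 to 2. The causes were not tested.

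The labels number the sections 1 and 2 in each group, and the numbers mark no shared mouse or day. With the replicate block the log2 fold change of Cldn2 was −0.44 and 10089 genes were called, against 9279, and deviations of same-numbered sections correlated at 0.16 over 15305 genes. Only 28.3% and 28.5% of ischemic pelvis spots kept that zone from the spot alone. The shallowest zones were the pelvis and the normal inner medulla, at 1182359 to 1683646 UMIs a section.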
